A study of Mus musculus with 12 samples.

Results

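Heparan sulfate proteoglycans are proteins that carry long sulfated sugar chains, through which growth factors, morphogens and guidance cues are held at the cell surface and in the matrix around it. Glypicans are attached to the membrane by a lipid anchor, syndecans cross the membrane, and agrin and perlecan are secreted into basement membranes. In the embryonic cortex such cores take part in fibroblast growth factor, Wnt and hedgehog signalling, in the basement membranes of the pial surface and of vessels, and in axon growth and synapse formation. The genes described here are 10 such cores, the glypicans Gpc1 to Gpc6, the syndecans Sdc2 and Sdc3, Agrn and Hspg2, found by gene symbol among 51912 genes listed for each library. Of the 10 genes, 9 had enough counts to be tested and 1, Gpc2, did not.

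RNA was taken from mouse cortex dissected at embryonic day 15.5. The tissue of 6 libraries came from embryos labelled Emx1-Cre Arid1a conditional mutant, in which Arid1a, a subunit of the BAF chromatin remodelling complex, is targeted by a recombinase under the control of Emx1, a gene of dorsal forebrain progenitors. Interneurons, vessels, meninges and microglia arise outside that lineage. The other 6 libraries were controls, and the labels name them only as controls, with no allele. In litter 1 there were 2 mutants beside 4 controls, and in litter 2 there were 4 mutants beside 2 controls. Females made up 5 of the 6 mutants and 2 of the 6 controls. Each library carries the label of 1 litter and 1 sex.

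Depth on genes was 643197 to 3525121 counts in the mutants and 1476478 to 2815042 counts in the controls. Levels are CPM, counts scaled to a common library total by the trimmed mean of M values (TMM). Log2 fold changes are given as mutant minus control, beside a standard error (SE), from an edgeR model of litter, sex and genotype across 10678 genes. Arid1a itself averaged 447 ± 51.0 CPM in mutants against 510 ± 42.3 CPM in controls (6 libraries each, ± SD), with overlap, and a count over the whole gene does not resolve a deleted part. Markers of cortical identity were all tested, with summed levels of 2243 to 3118 CPM in mutants and 2500 to 4160 CPM in controls. Control 5 stood apart in choroid plexus markers, at 178 CPM against 0.46 to 15.0 CPM in the other controls and 1.28 to 7.71 CPM in mutants, and in meninges markers, at 38.2 CPM against 6.44 to 7.77 CPM in the other controls and 5.14 to 11.2 CPM in mutants. Summed subplate and layer 6 markers were 1564 to 1830 CPM in mutants and 2402 to 3426 CPM in controls, without overlap.

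The counts covered whole gene bodies on 1 strand, introns included. Of 186 protein-coding genes that lie inside another protein-coding gene on the same strand and share no exon with it, 185 had no count in any library. Of 363 such genes inside a gene on the opposite strand, 143 had none, against 4684 of 20920 protein-coding genes inside no other. A read in an intron was therefore counted for its gene, and a read where the bodies of 2 genes on 1 strand overlap was counted for neither. The progenitor marker Sox2, covered in full by Sox2ot, and the neuronal marker Tubb3, covered in full by Gm20388, both stood at 0 counts. Unspliced and mature RNA cannot be told apart here.

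Gpc2, known as cerebroglycan and expressed by developing neurons, could not be measured. Its body (ENSMUSG00000029510.15, GRCm38 chromosome 5, 138273655 to 138280005, minus strand) spans 6351 bases, of which 99.3% lie inside Gm43720, an annotated gene on the same strand that reaches from 138264952 to 138279958. Only 47 bases of Gpc2 are free of it. Gpc2 had 1 count in each of 4 libraries and 0 in the other 8, and Gm43720 had 6 counts over all 12. A count of 0 allows up to 3.85 CPM in mutant 4, the shallowest library without a count, for counting error alone. These counts say nothing about the level of Gpc2 in the tissue.

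Body length also sets how the levels of the other 9 genes compare. Gpc5 spans 1433 kb of chromosome 14 and Gpc6 spans 1051 kb, and exons make up 0.311% and 0.611% of these bodies. Gpc3 spans 341.5 kb and Gpc4 112.2 kb of the X chromosome. The 2 pairs are neighbours, with 400.1 kb between Gpc5 and Gpc6 and 107.2 kb between Gpc4 and Gpc3. Sdc2 spans 114.2 kb, Hspg2 101.9 kb, Sdc3 33.8 kb, Agrn 32.2 kb and Gpc1 29.1 kb.

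Per kb of gene body, Agrn had the highest level, at 6.48 ± 0.642 CPM per kb (SD over 12 libraries), followed by Sdc3 at 4.47 ± 0.558 and Gpc1 at 4.05 ± 0.519 CPM per kb. Neighbours in that order overlapped in their ranges over the libraries. Gpc4 at 1.33 ± 0.471 and Gpc6 at 1.07 ± 0.201 CPM per kb lay below all 3 without overlap and overlapped each other. Hspg2 followed at 0.363 ± 0.084 and Sdc2 at 0.17 ± 0.0385 CPM per kb, each apart from the genes above it. Gpc3 at 0.0771 ± 0.0417 CPM per kb overlapped Sdc2, and Gpc5 at 0.0429 ± 0.0231 CPM per kb overlapped Gpc3. Per kb of exon the order changed, with Gpc6 first at 175 CPM per kb (106 to 210 over the libraries), Gpc4 next at 56.4 (24.8 to 99.2) and Hspg2 last at 2.59 CPM per kb (1.63 to 3.76). Which of these orders is nearer to that of the mature RNAs depends on the intronic share, which was not measured.

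**Figure D1:**
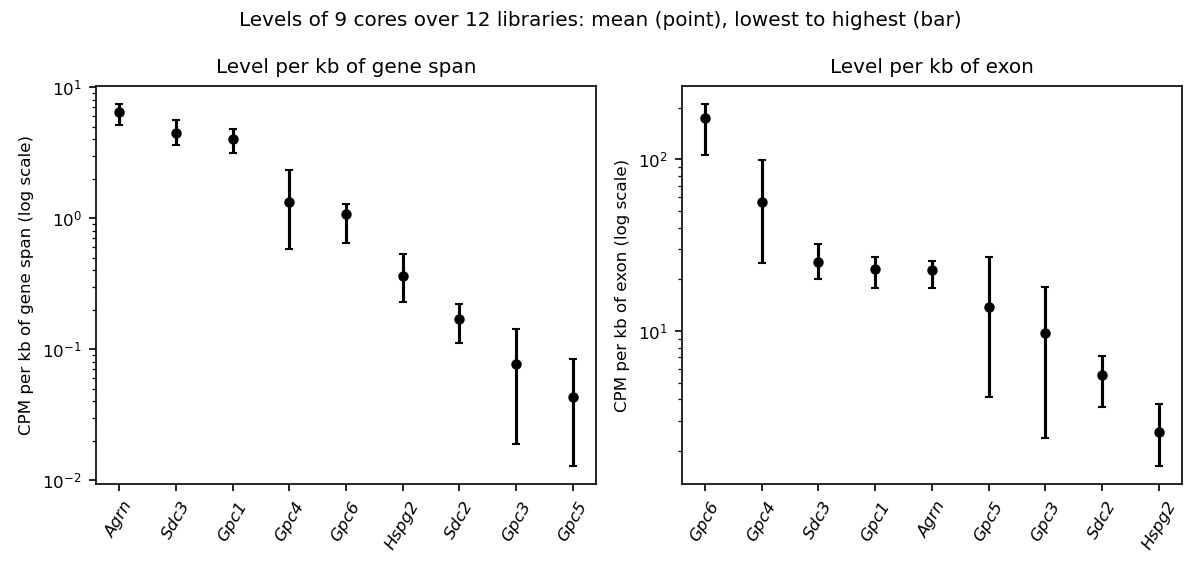
Level of each of the 9 measured genes in CPM per kb of gene body (left) and per kb of exon (right), both on log axes. Points are means over 12 libraries and bars run from the lowest to the highest library; Agrn leads on the left at 6.48 and Gpc6 on the right at 175.

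None of the 9 genes passed an edgeR adjusted p under 0.05 between mutants and controls, where 0.215% of all genes tested did, 0.0562% higher and 0.159% lower. At an unadjusted p under 0.05, 2 of the 9 passed, Gpc5 and Gpc3, against 8.78% of all genes. Their median log2 fold change was -0.03, with 4 values above 0 and 5 below, beside a median of -0.0009 over all genes. In bulk tissue a change in the number of cells that express a gene and a change in RNA per cell cannot be told apart.

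The promoters of Gpc5 and Gpc3, the genes with the largest genotype differences of the 9, are shown with their motif matches. The sequences are the 250 bases before the RefSeq start in GRCm38.p6, 5′ to 3′ on the gene's strand, at chr14:115091965-115092214 (plus strand) for Gpc5 and chrX:52613975-52614224 (minus strand) for Gpc3. Capitals mark matches on either strand to the GC box GGGCGG or the TATA box TATAAA, overlapping matches included.
Gpc5: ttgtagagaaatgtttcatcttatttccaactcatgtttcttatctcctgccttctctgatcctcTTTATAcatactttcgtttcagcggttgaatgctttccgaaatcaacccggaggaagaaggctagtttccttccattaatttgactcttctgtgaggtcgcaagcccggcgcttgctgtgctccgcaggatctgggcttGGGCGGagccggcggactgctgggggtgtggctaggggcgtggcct
Gpc3: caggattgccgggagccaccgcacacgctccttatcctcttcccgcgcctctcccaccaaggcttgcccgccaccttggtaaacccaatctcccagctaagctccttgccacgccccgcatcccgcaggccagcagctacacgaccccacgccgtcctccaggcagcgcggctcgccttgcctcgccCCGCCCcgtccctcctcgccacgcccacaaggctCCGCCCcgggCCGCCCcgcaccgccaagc

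Gpc5 held 1 GC box and 1 TATA box match and Gpc3 held 3 GC box matches and no TATA box match. Over 32851 RefSeq promoter windows of that length, 32.7% hold the GC box and 12.4% the TATA box. Neither window holds the AP-1 motif TGANTCA, which 6.75% of windows hold. The base pair CG occurs 12 times before Gpc5 and 25 times before Gpc3, against a median of 6 over all windows. Windows were found for 7 of the 10 genes.

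Gpc5, a glypican of the nervous system, had a higher level in every mutant than in any control, though it missed the adjusted threshold. Its levels in mutants 1 to 6 were 65.3, 64.9, 107, 89.9, 119.5 and 83.6 CPM, and in controls 1 to 6 they were 18.4, 44.5, 41.4, 20.2, 50.9 and 32.2 CPM. All 6 mutants lay above all 6 controls, as they did in 0.337% of the genes tested. Gpc5 averaged 88.4 ± 22.1 CPM in mutants against 34.6 ± 13.3 CPM in controls (6 libraries each, ± SD), from 43 to 388 counts per library. This gave a log2 fold change of 1.43 (SE 0.262, edgeR adjusted p = 0.0525).

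Since every mutant lay above every control, the Gpc5 groups were bound to be apart in each litter, which adds no further evidence. In litter 2 the 4 mutants had 83.6 to 119.5 CPM and the 2 controls 32.2 and 50.9 CPM, a log2 fold change of 1.36 (SE 0.178) in a fit to that litter with no filter. In litter 1 the 2 mutants had 64.9 and 65.3 CPM and the 4 controls 18.4 to 44.5 CPM, a log2 fold change of 1.76 (SE 0.335). With the sex term, the litter 1 value sets the 2 female mutants against control 1, the lone female control there, which is assumed to vary like the other libraries. In a model of all libraries with a sex term shared by both litters, the difference of the genotype effect between litters was 0.04 (SE 0.499, edgeR adjusted p = 1.0). Its SE is wide. This value is not the gap between the single-litter values above, each fitted with its own sex term.

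The call of Gpc5 depended on the test and on single libraries. DESeq2 called it (log2 fold change 1.44, adjusted p = 4.18e-05), where 0.89% of genes were called, and so did limma-voom (1.42, adjusted p = 0.032), where 0.225% were. With edgeR, Gpc5 was called without mutant 4 (1.76, adjusted p = 0.0304), where 10 of 11052 genes were called lower and 2 higher. Mutant 4 was the only male mutant, so the genotype term of that fit compared female mutants with controls 1 and 6, the female controls. The females alone rest on the same controls (1.75, adjusted p = 0.000553), where 0.377% of genes were called. Gpc5 was also called without control 2, 3 or 4 (adjusted p = 0.0181, 0.0297 and 0.00816), where 37, 23 and 45 genes were called lower and 7, 7 and 10 higher. In litter 2 alone, where 0.574% of genes were called, Gpc5 was called too (1.37, adjusted p = 0.0224). In litter 1 alone, against control 1, the outcome changed with the filter on low counts. Gpc5 was not called with that filter (1.81) and was called without it (1.76). Without control 5, the library with choroid plexus and meninges signal, Gpc5 had 1.47 (adjusted p = 0.101). Of the fits that left out a single library, those without control 6 (1.28, adjusted p = 0.299) and without control 1 (1.27, adjusted p = 0.155) missed the threshold by most. Over all 23 alternatives, which leave out the single-litter fits with no filter, its log2 fold change stayed between 1.21 and 1.81. It was called in 11.

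Gpc5 had the highest log2 fold change of the 59 tested genes that span 1000 kb or more, whose median was 0.12 and whose values ran from -1.22 to 1.43. Markers of interneurons, cells that Emx1-Cre does not target, also varied between libraries, with a summed level of 352 to 830 CPM in mutants and 268 to 762 CPM in controls. Among controls the lowest Gpc5 levels, in controls 1 and 4, stood beside low interneuron sums of 292 and 268 CPM, and controls 2 and 3, with sums of 762 and 661 CPM, had higher Gpc5. Control 5 had the highest Gpc5 of the controls at a low sum of 330 CPM, and control 6 had 32.2 CPM of Gpc5 at a sum of 437.5 CPM. Mutant 5 had the highest Gpc5 level of all at an interneuron sum of 352 CPM, and mutant 4 had 89.9 CPM of Gpc5 at a sum of 407 CPM. Mutants 6 and 1, with the highest sums of the mutants, 830 and 741 CPM, had 83.6 and 65.3 CPM of Gpc5. Mutants 3 and 2 had 107 and 64.9 CPM of Gpc5 at sums of 651.5 and 542 CPM. Summed ganglionic eminence and striatum markers also varied, at 3467, 2392, 2885, 2024, 2637 and 4257 CPM in mutants 1 to 6. In controls 1 to 6 they were 1706, 3999, 2753, 1907, 2397 and 2549 CPM. The part of interneurons, or of ganglionic eminence and striatum cells, in the Gpc5 difference was not tested.

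Gpc3, a glypican that restrains hedgehog signalling and body growth, had the next largest difference. Mutants 1 to 6 had 28.9, 40.4, 35.2, 39.8, 48.8 and 32.5 CPM, and controls 1 to 6 had 13.4, 9.89, 6.40, 8.59, 31.8 and 20.2 CPM. Only control 5 reached the range of the mutants, and 5 of 6 mutants lay above every control. The share of all genes with that order was not counted. Gpc3 averaged 37.6 ± 7.02 CPM in mutants against 15.1 ± 9.53 CPM in controls (6 libraries each, ± SD), from 14 to 127 counts per library. Its log2 fold change of 1.04 (SE 0.301, edgeR adjusted p = 0.234) did not pass.

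The controls of Gpc3 differed by litter. The 4 controls of litter 1 had 6.40 to 13.4 CPM and the 2 controls of litter 2 had 20.2 and 31.8 CPM, while the mutants had 28.9 and 40.4 CPM in litter 1 and 32.5 to 48.8 CPM in litter 2. Gpc3 had a log2 fold change of 0.73 (SE 0.23) within litter 2 and, within litter 1, against control 1 alone, of 1.33 (SE 0.445). With a sex term shared by both litters, the interaction of litter and genotype for Gpc3 was -1.27 (SE 0.421). Its unadjusted edgeR p of 0.00783 did not pass over all genes (adjusted p = 0.529). Control 5, the library with the choroid plexus and meninges signal, was the control with the most Gpc3. Without it the log2 fold change of Gpc3 was 1.32 (SE 0.236, adjusted p = 0.026), so the call turned on that library, in a fit where 0.254% of genes were called. Gpc3 was also called by edgeR with no filter on low counts (1.01, adjusted p = 0.000351), where 1.07% of genes were. With neither litter nor sex in the model it was called too (1.38, adjusted p = 0.0487), where 118 of 10678 genes were called lower and 23 higher.

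**Figure D2:**
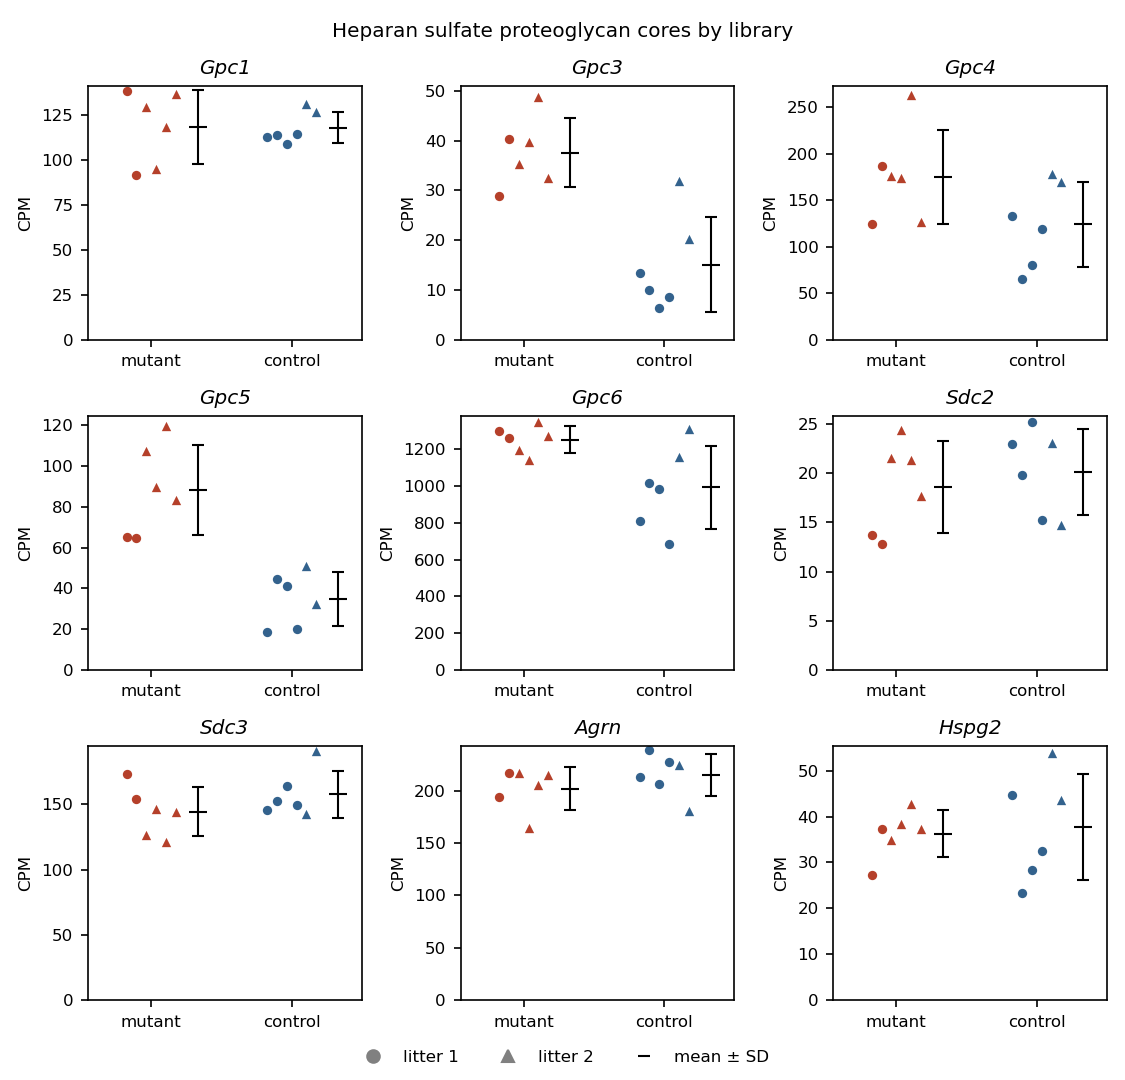
CPM of the 9 measured genes in each library, mutants left and controls right, with circles for litter 1, triangles for litter 2 and bars for the mean ± SD (n = 6 each). The mutants lie above every control in Gpc5 and above every control but control 5 in Gpc3, and the groups overlap in the other 7 genes.

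Gpc4, a glypican of neural progenitors and of astrocytes, where it promotes synapse formation, lies beside Gpc3 but did not differ beyond its spread. Mutants 1 to 6 had 125, 186, 176, 173, 263 and 126 CPM, and controls 1 to 6 had 133, 65.7, 79.9, 119, 178 and 170 CPM. All 6 mutants were above the control mean of 124 ± 45.7 CPM, with a mean of 175 ± 50.5 CPM (SD, n = 6 each). With litter and sex in the model the log2 fold change of Gpc4 was 0.20 (SE 0.266, edgeR adjusted p = 0.918). Gpc4 was lowest in controls 2 and 3, both males of litter 1.

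Gpc6, another glypican with a role in synapse formation by astrocytes, took the most counts of the 10 genes, 24420 in all. Mutants 1 to 6 had 1299, 1260, 1194, 1143, 1347 and 1273 CPM, and controls 1 to 6 had 811, 1017, 982, 683, 1156 and 1310 CPM. The mutants lay close together, at 1253 ± 73.3 CPM, and the controls spread over 993 ± 227 CPM (SD, n = 6 each). In litter 1 both mutants lay above all 4 controls, and in litter 2 the groups overlapped. How many of all genes have such an order within 1 litter was not counted. For Gpc6 the log2 fold change was 0.21 (SE 0.138, edgeR adjusted p = 0.741) over all libraries, 0.59 (SE 0.203) in litter 1 against control 1 alone and -0.03 (SE 0.127) in litter 2. The interaction of litter and genotype for Gpc6 was -0.52 (SE 0.22, unadjusted p = 0.031, edgeR adjusted p = 0.629). Of the 9 genes 2, Gpc3 and Gpc6, had an unadjusted interaction p under 0.05, against 7.27% of all genes, and none of the 9 passed the adjusted threshold, nor did any gene (0.0%).

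Gpc1, the glypican of neurons and of early forebrain growth, had the same mean in both groups. Mutants 1 to 6 had 138, 91.5, 129, 95.0, 118 and 137 CPM, and controls 1 to 6 had 113, 114, 109, 114, 131 and 126.5 CPM. Gpc1 averaged 118 ± 20.6 CPM in mutants against 118 ± 8.85 CPM in controls (6 libraries each, ± SD), with mutants on both sides of the control range. With litter and sex in the model Gpc1 had a log2 fold change of -0.11 (SE 0.121, edgeR adjusted p = 0.881).

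**Figure D3:**
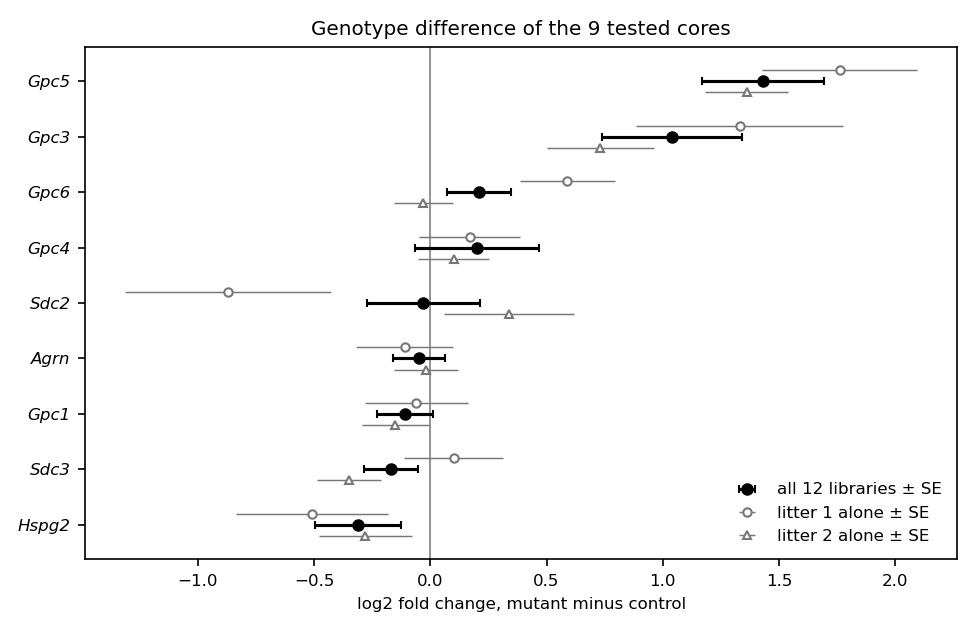
Log2 fold change, mutant minus control, of the 9 tested genes. Filled points with bars are the fit to 12 libraries ± SE, open circles litter 1 alone and open triangles litter 2 alone ± SE; Gpc5 (1.43) and Gpc3 (1.04) lie apart from 0, and Sdc2, Sdc3 and Gpc6 differ in sign between the litters.

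The syndecans did not pass. Sdc3, the neuronal syndecan that binds pleiotrophin, had 173, 154, 126.5, 146, 121 and 144 CPM in mutants 1 to 6, and 146, 153, 164, 150, 143 and 191 CPM in controls 1 to 6. The groups overlapped, with 5 of 6 mutants below the control mean. Sdc3 had a log2 fold change of -0.17 (SE 0.116, edgeR adjusted p = 0.755), with -0.35 (SE 0.136) in litter 2 and 0.10 (SE 0.214) in litter 1 against control 1 alone. Sdc2, which takes part in dendritic spine formation, had 12.8 to 24.4 CPM in mutants and 14.7 to 25.2 CPM in controls, from 9 to 78 counts per library. The 2 litter 1 mutants, at 13.7 and 12.8 CPM, were below every control, and the 4 litter 2 mutants were not. The share of all genes with such an order was not counted. The log2 fold change of Sdc2 was -0.03 (SE 0.243, edgeR adjusted p = 1.0).

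Of the secreted cores, Agrn, the organiser of the neuromuscular junction and a component of brain basement membranes, varied least over the libraries. Mutants 1 to 6 had 194.5, 217, 217, 164, 205.5 and 215 CPM, and controls 1 to 6 had 213, 239, 206, 227, 225 and 180 CPM. The ranges overlapped, and the log2 fold change of Agrn was -0.05 (SE 0.111, edgeR adjusted p = 0.975). Hspg2, which encodes perlecan of vascular and pial basement membranes, had 27.3, 37.2, 34.9, 38.5, 42.8 and 37.2 CPM in mutants 1 to 6, and 44.7, 23.3, 28.3, 32.5, 53.8 and 43.7 CPM in controls 1 to 6. Its log2 fold change was -0.31 (SE 0.184, edgeR adjusted p = 0.698). The highest Hspg2 level was in control 5, the library with choroid plexus and meninges signal. Control 5 also had the highest summed endothelial markers, at 143 CPM against 103 to 123 CPM in the other controls and 115 to 131 CPM in mutants. The lowest Hspg2 level, in control 2, stood beside the lowest endothelial sum, 103 CPM. Control 1, with the next highest Hspg2 level, had a sum of 104 CPM, and mutant 1, at 27.3 CPM of Hspg2, had 128 CPM. The part of endothelial cells in these levels was not tested. Without control 5, as without any other single library, Hspg2 did not pass.

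Litter 2 against litter 1, with genotype and sex held, gave a positive log2 fold change in 7 of the 9 genes, and none passed the threshold, where 1.31% of all genes did. At an unadjusted p under 0.05, 4 of the 9 passed, Gpc3, Hspg2, Gpc5 and Gpc4, against 15.4% of all genes. Gpc3 had 0.81 (SE 0.265, edgeR adjusted p = 0.155), with 34.7 ± 9.46 CPM in litter 2 and 17.9 ± 13.7 CPM in litter 1 (SD, n = 6 each). Hspg2 had 0.43 (SE 0.162, adjusted p = 0.208), Gpc5 0.56 (SE 0.22, adjusted p = 0.252) and Gpc4 0.54 (SE 0.232, adjusted p = 0.305). Without control 5, control 6 was the lone control of litter 2, and none of the 9 had an unadjusted p under 0.05 for litter. In that fit 1211 of 11030 genes did, against 1641 of 10678 with all libraries. Sex gave none at either threshold, where 0.00937% of genes passed the adjusted one and 6.95% the unadjusted one. Gpc4 and Gpc3, both on the X chromosome, had log2 fold changes of 0.31 (SE 0.258) and 0.17 (SE 0.295) in females against males.

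**Figure D4:**
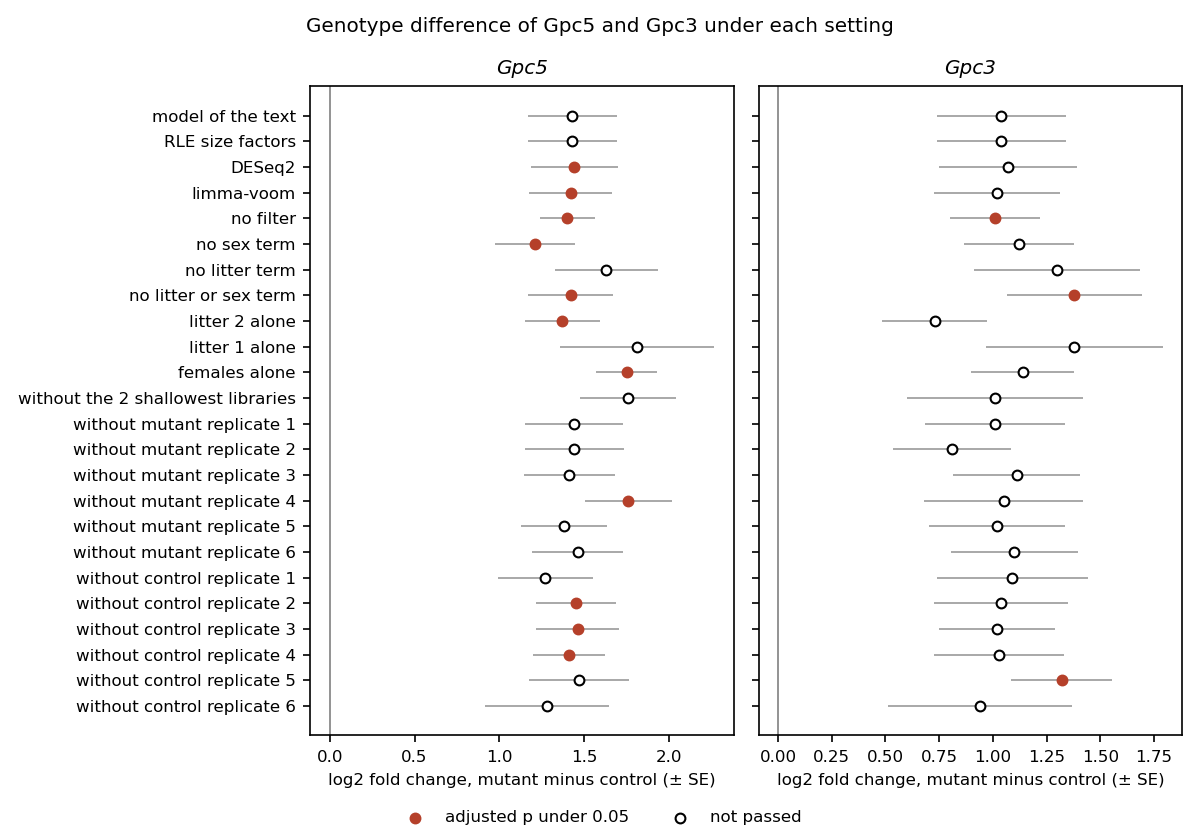
Log2 fold change, mutant minus control (± SE), of Gpc5 and Gpc3 in the model above and in 23 alternatives. Filled points passed an adjusted p under 0.05; Gpc5 stays between 1.21 and 1.81 and passes in 11, and Gpc3 stays between 0.73 and 1.38 and passes in 3.

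Gene by gene, the 10731 genes with a mean of at least 5 CPM were ranked by how closely their log2 CPM followed each core over the 12 libraries, which share depth, dissection, litter and genotype. Gpc5 was closest to Zfp618 (Pearson r = 0.929, Spearman rho = 0.846), Alms1 (0.915, 0.937) and Pdgfc (0.898, 0.853). Gpc3 was closest to Agbl4 (0.95, 0.93), Alcam (0.936, 0.909) and Ctnnb1 (0.934, 0.839). Gpc4 was closest to Creb5 (0.962, 0.909), Tcf7l1 (0.96, 0.937) and Cdon (0.954, 0.867). These are the highest of 10731 values each and are given as a description.

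The genes that build, edit and read the heparan sulfate chains were followed as 6 lists of 115 genes, of which 92 were tested. In mutants 3 of them fell, Hs3st5, Sulf1 and Lrrtm4, 1 rose, Pdgfc, and 88 did not pass, where 0.159% of all genes tested were called lower and 0.0562% higher. Earlier results of these data, in which these 4 genes stand, were known when the lists were written, so the counts are no independent evidence.

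Enzymes of chain synthesis, which build the linker on the core and extend the chain, had 10 tested genes, none of which passed, with a median log2 fold change of 0.04. The closest to the threshold were Fam20b, a kinase of the linker (-0.26, SE 0.146), B3galt6, a linker galactosyltransferase (0.58, SE 0.352), and Xylt1, which starts the linker (-0.24, SE 0.171), with edgeR adjusted p of 0.656, 0.73 and 0.783.

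Enzymes of chain modification had 16 tested genes, of which 1 fell and 15 did not pass, with a median of -0.03. Hs3st5, a sulfotransferase that adds the rare 3-O-sulfate, had 91.2, 84.1, 69.8, 105, 95.9 and 74.3 CPM in mutants 1 to 6, and 141, 253, 181, 275, 178 and 215 CPM in controls 1 to 6, without overlap. Its log2 fold change was -1.09 (SE 0.175, edgeR adjusted p = 0.0212). The call of Hs3st5 held in 16 of 23 alternatives. It was lost without control 6 (-0.71, adjusted p = 0.213) and without mutant 1, 2, 4 or 6 (adjusted p = 0.0784, 0.0957, 0.105 and 0.0503). It was also lost in litter 1 alone (-0.70) and without mutants 1 and 4 together (-1.13, adjusted p = 0.246). The other 3-O-sulfotransferases Hs3st3b1 and Hs3st4 had -1.30 (SE 0.331, adjusted p = 0.13) and -1.04 (SE 0.266, adjusted p = 0.214). Each was called in 4 of 23 alternatives. Both were called without control 4 (adjusted p = 0.0373 for Hs3st3b1 and 0.019 for Hs3st4), where 45 of 10512 genes were called lower and 10 higher. Both were also called in females alone (adjusted p = 0.048 and 0.00622), where 0.377% of genes were. Hs3st3b1 was further called with no filter and with no sex term, and Hs3st4 by DESeq2 and with neither covariate. Hs3st4 averaged 414 ± 83.2 CPM in mutants against 893 ± 298 CPM in controls (6 libraries each, ± SD), without overlap. It is itself 1 of the 11 subplate and layer 6 markers summed above, whose part in the values of Hs3st4 and Hs3st5 was not tested. Hs6st3, which adds 6-O-sulfate, had 0.86 (SE 0.269, adjusted p = 0.331). It was called in 2 of 23 alternatives, DESeq2 (0.87, adjusted p = 0.0361) and litter 2 alone (1.30, adjusted p = 0.0129). In these 0.89% and 0.574% of genes were called.

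Genes of chain removal and core shedding had 8 tested members, of which 1 fell and 7 did not pass, with a median of 0.04. Sulf1, which clips 6-O-sulfate from finished chains outside the cell, had 3.04, 8.51, 5.81, 11.6, 4.28 and 10.2 CPM in mutants 1 to 6, and 19.2, 22.6, 17.0, 11.9, 39.9 and 27.1 CPM in controls 1 to 6. The groups of Sulf1 did not overlap, with mutant 4 and control 4 next to each other, and all 6 mutants lay below all 6 controls in 0.927% of genes tested. Its log2 fold change was -1.96 (SE 0.321, edgeR adjusted p = 0.0108), called in 19 of 23 alternatives. The call of Sulf1 was lost without control 6 (-2.07, adjusted p = 0.0897) and with no litter term (-1.67, adjusted p = 0.0951). It was also lost in litter 1 alone (-1.63) and without mutants 1 and 4, the shallowest libraries (-2.07, adjusted p = 0.103). Sulf1 rested on 2 to 69 counts per library. The lysosomal enzymes Idua and Ids had -0.47 (SE 0.323) and 0.10 (SE 0.145), with edgeR adjusted p of 0.752 and 0.925.

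**Figure D5:**
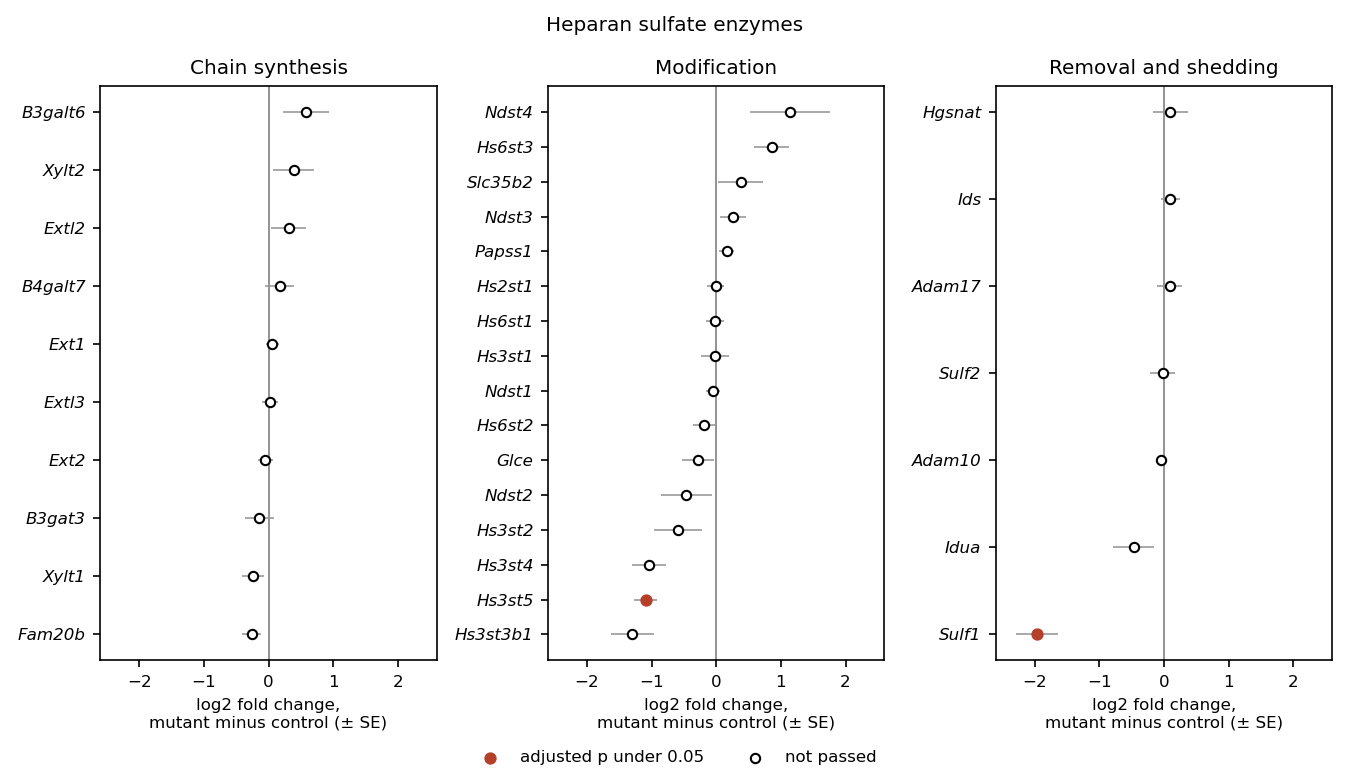
Log2 fold change, mutant minus control (± SE), of tested enzymes of chain synthesis (10), modification (16) and removal or shedding (7 of 8). Filled points passed an adjusted p under 0.05: Hs3st5 at -1.09 and Sulf1 at -1.96.

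Surface partners of proteoglycans had 32 tested genes, of which 1 fell and 31 did not pass, with a median of 0.01. Lrrtm4, a synaptic adhesion protein that binds the chains of glypicans and syndecans, had 305, 238, 245, 365, 252 and 269 CPM in mutants 1 to 6, and 770, 700, 700, 910, 508 and 440 CPM in controls 1 to 6, without overlap. Its log2 fold change was -0.97 (SE 0.146, edgeR adjusted p = 0.00961), called in 20 of 23 alternatives and lost without mutant 1 (adjusted p = 0.068) or control 6 (adjusted p = 0.0544). Below the threshold, the pentraxin Nptx1 had -1.07 (SE 0.298, adjusted p = 0.19), the receptor Fgfr2 0.31 (SE 0.0997, adjusted p = 0.276) and the agrin receptor Lrp4 0.44 (SE 0.187, adjusted p = 0.492). Fgfr2 averaged 280 ± 23.5 CPM in mutants against 209 ± 23.2 CPM in controls, and Lrp4 averaged 87.8 ± 18.5 CPM in mutants against 54.7 ± 14.8 CPM in controls (6 libraries each, ± SD).

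Heparin-binding ligands had 12 tested genes, of which 1 rose and 11 did not pass, with a median of -0.10. Pdgfc, a growth factor of the platelet-derived family and one of the 3 genes closest to Gpc5 above, had 74.4, 69.2, 128, 155, 152 and 111 CPM in mutants 1 to 6, and 45.6, 69.9, 49.0, 41.8, 79.3 and 75.0 CPM in controls 1 to 6. The groups of Pdgfc overlapped over all libraries. In litter 2 the 4 mutants lay above both controls, an order whose share over all genes was not counted. Its log2 fold change was 0.79 (SE 0.147, edgeR adjusted p = 0.0253), called in 11 of 23 alternatives. The call of Pdgfc was lost without mutant 1, 2, 3 or 4 (adjusted p = 0.082, 0.0696, 0.0519 and 0.164) and without control 1, 5 or 6 (adjusted p = 0.056, 0.0656 and 0.168). It was also lost with no litter term (1.06, adjusted p = 0.182) and with neither covariate (0.98, adjusted p = 0.0593). The same held in litter 1 alone (0.64), in females alone (0.75, adjusted p = 0.0588) and without mutants 1 and 4 together (0.76, adjusted p = 0.38). The ligands Nrg1, Mdk and Wnt7a had -0.31 (SE 0.123), -0.49 (SE 0.249) and 0.18 (SE 0.139), with adjusted p of 0.436, 0.611 and 0.801.

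Basement membrane genes, the setting of agrin and perlecan, had 15 tested genes, none of which passed, and 11 of them were below 0, with a median of -0.14. The laminin chains Lamb1 and Lama1 had -0.69 (SE 0.265, adjusted p = 0.394) and -0.73 (SE 0.335, adjusted p = 0.552), and the laminin receptor Itga6 had -0.38 (SE 0.156, adjusted p = 0.46), by edgeR. Lamb1 averaged 14.3 ± 3.94 CPM in mutants against 27.9 ± 8.89 CPM in controls (6 libraries each, ± SD). Summed pericyte markers were 74.9 to 92.7 CPM in mutants against 55.2 to 76.9 CPM in controls, and their part in these values was not tested.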

How the data were processed

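The authors deposited a file of unnormalized whole-number counts for each library, by Ensembl gene ID. The build named is mm10, and the tools named are STAR 2.5.2a, HTSeq 0.6.1p1, UMI-tools 0.5.3, cutadapt 1.13, bcl2fastq 2.17 and edgeR 3.20.9, per the submitters' processing notes. The annotation release and counting mode are not given there. Per the labels' protocols, ribosomal RNA was depleted and libraries were made by ClickSeq with a random molecular tag. Entries that name no gene (20.7 to 31.6% of a file's total) were left out. Symbols and positions came from GENCODE M21 (GRCm38). All labels give batch 1, and litter and sex entered the model.

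Genes were kept by filterByExpr with its minimum count of 10, scaled with TMM factors, and tested by quasi-likelihood (glmQLFTest after a robust glmQLFit) with edgeR 4.0.16 under R 4.3.3, leaving 8 residual degrees of freedom and Benjamini-Hochberg adjustment over 10678 genes. Alternatives changed the scaling, filter, covariates, tool or libraries. The code was tested on simulated data. Other tests were limma-voom with limma 3.58.1, and DESeq2 1.42.0. The SE is the log2 fold change over the square root of F. Likeness used log2(CPM + 0.5). Tables and plots used Python 3.11.15, pandas 2.3.3 and matplotlib 3.10.9. The text names all 10 cores, every called gene of the lists, up to 3 others a list with the smallest p, and the 3 genes most like Gpc3, Gpc5 and Gpc4, the cores that varied most; 1 further gene is not reported here. Genes and lists were chosen with earlier results of these data known. Nothing says that molecular tags were fully collapsed, so floors cover counting error only. The p-values set each difference against the spread between these libraries.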

Additional observations from a re-analysis of the deposited data

Results flagged for a closer look

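None of the 9 measured cores, and none of the 4 called genes of the lists, had a library set apart from the others of its group. Of the summed marker lists, 3 had a library whose gap to the nearest of the others was more than 0.625 of the range of its group of 6, a gap that chance gives in about 1 group in 20. In all 54 groups were checked, so chance alone would give about as many flags at that cut. The gaps found were 0.918 of the range for choroid plexus and 0.958 for meninges markers in control 5. For subplate and layer 6 markers in mutant 5 the gap was 0.777. Whether chance gave any of these gaps was not tested. Control 5 had 178.2 CPM of choroid plexus markers, where the other controls had 0.46 to 15.0 CPM, and 38.2 CPM of meninges markers, where the other controls had 6.44 to 7.77 CPM. Mutant 5 had 1830 CPM of subplate and layer 6 markers, where the other mutants had 1564 to 1624 CPM and every control had more.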

How the results depend on the processing

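Gpc5 and Gpc3 kept a positive log2 fold change in all 23 alternatives, and Gpc4 (0.06 to 0.51) did too. Cores called were 0 above, and numbered 1 with DESeq2, limma-voom, no sex term, litter 2 alone or females alone, 2 with no filter or with neither covariate, and 0 to 1 when single libraries were left out. For litter, 2 were called with no filter, where 265 of 24283 genes were called lower and 328 higher. With single libraries left out 0 to 1 were called for litter. The 1 was Gpc3 without mutant 2, where 67 of 11050 genes were called lower and 65 higher. Called genes of the lists, 4 above, numbered 8 with no filter, 2 with no litter term, 1 in litter 1 alone (chosen after seeing the data), 0 without mutants 1 and 4, the shallowest libraries, and 0 to 6 with single libraries left out. Over all genes, lower and higher calls were 17 and 6, against 77 and 18 with DESeq2, 199 and 62 with no filter, 63 and 14 with no sex term, 118 and 23 with neither covariate, 41 and 23 in litter 2 alone, 3 and 2 in litter 1 alone, 0 and 0 without mutants 1 and 4 (edgeR, 700 genes at an unadjusted p under 0.05), 37 lower in females alone and 2 higher with no litter term. With single libraries left out they ranged from 5 to 45 lower and from 0 to 10 higher. Signs turned for Gpc1 with neither covariate (0.0092), in females (0.01) and without mutant 4 (0.01; range with single libraries left out -0.2 to 0.01), for Gpc6 in litter 2 alone (-0.02), for Sdc3 in litter 1 alone (0.16) and without control 6 (0.12; -0.26 to 0.12), and for Agrn in females (0.11), without mutants 1 and 4 (0.14) and without mutant 4 (0.11; -0.22 to 0.11). Sdc2 turned with limma-voom (0.07), no litter term (0.04), litter 2 alone (0.35) and without mutant 1 (0.04), mutant 2 (0.09) or control 1 (0.23; -0.41 to 0.23). Ids turned with no sex term (-0.05), no litter term (-0.02), neither (-0.18), litter 1 alone (-0.35) and without control 6 (-0.04; -0.04 to 0.23), and Mdk in litter 1 alone (0.05). The cause of these shifts was not tested. No paired analysis was possible because the labels number no replicates across genotypes, and litter was a term of the model. Depth limits Sdc2 and Gpc3 most among the 9 tested cores, with as few as 9 and 14 counts in a library, and of the list genes Idua, Sulf1 and Hs3st3b1 had as few as 1, 2 and 2.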
